A study of Mus musculus with 12 samples.

Results

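Oligodendrocyte and myelin genes were followed through a table of long noncoding RNA counts from the brains of 5×FAD and WT mice. A list of 42 genes that mark cells of the oligodendrocyte lineage was used, and every row of the table whose Ensembl transcript identifier belongs to one of them in the GENCODE M21 annotation was taken. Of the 42 genes, 24 had at least 1 row, and together they had 53 of the 48033 rows. The rows are noncoding transcripts of these genes, 33 annotated as retained introns and 20 as processed transcripts, and the values below are the counts given to those rows, many of which share most of their bases with a coding mRNA. The 12 libraries came from WT hippocampus, 5×FAD hippocampus, WT cerebral cortex and 5×FAD cerebral cortex, with 3 libraries each. All mice were 7 months old and of the C57BL/6J background. The 5×FAD mice carry transgenes with familial Alzheimer mutations of APP and PS1, expressed from Thy1 elements and so mainly in neurons, and the WT mice were their non-transgenic counterparts. The RNA came from whole pieces of tissue. The labels do not give the sex of each mouse or say which libraries of both regions share a mouse.

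Oligodendrocytes wrap axons of the central nervous system in myelin, a stack of lipid-rich membrane held together by a small number of abundant proteins. They arise from precursor cells that express the growth factor receptor PDGFRA and the proteoglycan NG2, pass through a premyelinating stage, and then switch on myelin genes under factors such as OLIG2, SOX10 and MYRF. Many of these genes also give rise to transcripts that keep an intron or end early, which are classed as noncoding although they share exons with the mRNA.

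The sequences of 8 rows show how they differ from the mRNA of the same gene. They are taken from the GENCODE M21 transcripts of GRCm38 and are written 5′ to 3′ along the transcript. Lower case marks the 40 bases nearest the edge that are protein-coding sequence in other transcripts of the gene, and capitals mark 80 bases that no coding transcript of the gene holds. They belong to genes described below because their groups did not overlap or their counts rest on few libraries. For Fa2h the row with the most counts is shown, since ENSMUST00000159336 has 6 bases of its own.
Cnp ENSMUST00000150414: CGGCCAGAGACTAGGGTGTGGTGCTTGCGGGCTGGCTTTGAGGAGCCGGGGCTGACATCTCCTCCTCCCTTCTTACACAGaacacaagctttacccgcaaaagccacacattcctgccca
Cnp ENSMUST00000147403: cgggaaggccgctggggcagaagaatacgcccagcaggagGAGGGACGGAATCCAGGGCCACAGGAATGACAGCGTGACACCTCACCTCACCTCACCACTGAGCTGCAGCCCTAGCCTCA
Pllp ENSMUST00000212555: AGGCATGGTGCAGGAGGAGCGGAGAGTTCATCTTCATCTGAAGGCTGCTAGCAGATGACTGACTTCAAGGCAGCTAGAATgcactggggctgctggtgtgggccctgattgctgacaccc
Fa2h ENSMUST00000162463: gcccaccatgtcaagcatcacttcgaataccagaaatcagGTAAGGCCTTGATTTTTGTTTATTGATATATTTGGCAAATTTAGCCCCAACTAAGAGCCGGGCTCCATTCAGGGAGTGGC
Bcas1 ENSMUST00000145920: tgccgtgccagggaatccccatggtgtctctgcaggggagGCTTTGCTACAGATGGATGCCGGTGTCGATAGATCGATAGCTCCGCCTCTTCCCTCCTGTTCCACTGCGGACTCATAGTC
Aspa ENSMUST00000132774: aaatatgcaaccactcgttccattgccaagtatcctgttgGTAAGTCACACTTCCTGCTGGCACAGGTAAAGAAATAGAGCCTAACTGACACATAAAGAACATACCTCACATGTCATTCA
Dock10 ENSMUST00000187698: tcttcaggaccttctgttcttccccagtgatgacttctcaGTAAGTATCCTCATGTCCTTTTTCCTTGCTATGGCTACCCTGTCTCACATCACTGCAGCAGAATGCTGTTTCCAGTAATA
Dock10 ENSMUST00000191505: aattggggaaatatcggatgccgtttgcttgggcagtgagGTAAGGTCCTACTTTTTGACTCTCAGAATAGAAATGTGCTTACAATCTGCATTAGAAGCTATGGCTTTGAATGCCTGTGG

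In the Fa2h, Aspa and both Dock10 rows the capitals follow the coding bases without a break in the genome, so the row runs from an exon into the next intron. In Cnp ENSMUST00000150414 the capitals are the end of an intron that runs into the next exon. In the other 3 rows the edge is a splice junction. The capitals lie at chr11:100576156-100576235 on the plus strand for Cnp ENSMUST00000150414, at chr11:100591267-100591346 on the plus strand for Cnp ENSMUST00000147403, and at chr8:94679995-94680074 on the minus strand for Pllp. They lie at chr8:111347851-111347930 for Fa2h, chr2:170397635-170397714 for Bcas1, chr11:73319715-73319794 for Aspa, chr1:80648133-80648212 for Dock10 ENSMUST00000187698 and chr1:80584916-80584995 for Dock10 ENSMUST00000191505, all on the minus strand.

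The rows overlap the mRNAs to very different degrees. The share of a row's bases that also lie in exons of coding transcripts of its gene ranged from 0.316% to 100%, with a median of 66.6% over the 53 rows. It was 8.94% for the Aspa row and 8.71% for Dock10 ENSMUST00000187698, which are almost all intron. It was 75.5% for Cnp ENSMUST00000150414, 94.8% for Myrf ENSMUST00000190922 and 99.7% for Fa2h ENSMUST00000159336, which has 6 bases of its own. In 14 rows fewer than 100 bases lie outside coding exons. How reads from such shared bases were divided between the row and the mRNA is not given in the sources used here, so the level of a row and that of its mRNA cannot be told apart where bases are shared. Another gene overlaps 4 of the rows on the same strand and 8 on the opposite strand, among them the Pllp row over its full 954 bases and 440 bases of Bcas1 ENSMUST00000145920. The libraries were stranded, but whether the counting used strand is not given.

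Depth was similar across libraries. Totals ran from 3517967 to 5014389 counts per library, and the 53 rows took 2861 to 6392 of them. Counts were scaled with TMM factors to counts per 1000000 (CPM), and 3 counts, taken as the smallest detectable amount, correspond to 0.637 to 0.855 CPM. The sex-linked transcripts set apart 4 libraries. Xist, which females transcribe from their inactive X chromosome, had 30468 to 46630 counts in the libraries labelled 5×FAD 1 and 5×FAD 2 of both regions, where 4 Y-linked genes summed to 0 counts. The other 8 libraries had at most 25 Xist counts and 1074 to 1661 Y-linked counts. Each genotype is described as 2 females and 1 male, so the WT libraries go against the description, and every comparison of 5×FAD with WT also compares libraries of different sex. Results were therefore repeated without the mice labelled 5×FAD 1 and 2, which leaves a single 5×FAD library in each region. The labelled regions differed in their marker genes: rows of the hippocampal factor gene Zbtb20 were at 115 ± 8.80 CPM in WT hippocampus and 30.2 ± 4.82 in WT cortex (SD, n = 3), and those of Mef2c, which is higher in cortex, at 111 ± 1.84 and 291 ± 35.0. Both differences were called by edgeR, with adjusted p = 0.00423 for Zbtb20 and 0.00604 for Mef2c.

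The lineage was represented unevenly. Among 13 genes for membrane and sheath proteins of myelin, 6 had rows (Mbp, Mag, Cnp, Mobp, Pllp and Nfasc). Among 7 transcription factors, Myrf and Tcf7l2 did. Of 8 genes for enzymes and for the handling of lipids, iron or ions, 7 had rows (Ugt8a, Fa2h, Aspa, Qdpr, Car2, Trf and Apod). Of the other genes, Gjc3 of 2 gap junction genes, Pdgfra, Cspg4 and Bcas1 of 4 precursor and early genes, and Ndrg1, Evi2a, Gsn, Pde4b and Dock10 of 8 further genes had rows. The 18 genes with no row were Mog, Mal, Cldn11, Opalin, Tspan2, Ermn, Tmem88b, Olig1, Olig2, Sox10, Sox8, Nkx6-2, Enpp2, Gjb1, Gpr17, Cnksr3, Gpr37 and Adamts4, so several defining markers of the lineage were not measured here.

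Per kilobase of row, the highest levels belonged to Apod, Nfasc and Cnp. Apod, a lipid carrier of glia, had means of 112, 105, 134 and 185 CPM per kb in WT hippocampus, 5×FAD hippocampus, WT cortex and 5×FAD cortex. Nfasc, a cell adhesion gene of the axon–glia junction, had 111, 115, 116 and 106, and Cnp, which encodes the myelin enzyme CNPase, had 86.0, 129, 90.6 and 133. The lowest levels belonged to Pdgfra, with 2.64 to 4.08 CPM per kb, and Evi2a, with 0.907 to 3.09, and outside 5×FAD cortex to Pllp, with 0.228 to 0.688. Evi2a, a membrane protein gene, and Pllp, a myelin membrane proteolipid gene, did not pass the filter on low counts in any comparison, and Pdgfra passed it in 3 of 5 fits.

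The summed level of the 24 genes was 1114, 1218 and 1094 CPM in the libraries of WT hippocampus and 1192, 1205 and 1244 in those of 5×FAD hippocampus. It was 1081, 1142 and 815 CPM in WT cortex and 1063, 1377 and 1449 in 5×FAD cortex. The sum overlapped between genotypes in both regions, and cortex WT 3 was the lowest of the 12 libraries. The 6 membrane and sheath genes alone summed to 444, 443 and 360 CPM in WT and 577, 490 and 537 CPM in 5×FAD hippocampus, and to 491, 435 and 329 CPM in WT and 509, 624 and 570 CPM in 5×FAD cortex, without overlap in either region. Cnp held the largest part of this sum in each library. Without Cnp, a choice made after the values were seen, the genotypes overlapped in both regions, at 194 to 216 in WT and 156 to 257 CPM in 5×FAD hippocampus and at 173 to 215 in WT and 207 to 288 CPM in 5×FAD cortex. The 288 CPM of cortex 5×FAD 2 includes 84.8 CPM of the Pllp row, which was near 0 in every other library. The 624 and 1377 CPM of that library include it too. Nfasc held the largest part of what was left without Cnp in each library. Its means were 124 CPM in WT and 122 in 5×FAD hippocampus, and 124 in WT and 123 in 5×FAD cortex. Which cells gave the Nfasc counts was not measured. In a piece of tissue, a difference in the number of oligodendrocytes and a difference in RNA per oligodendrocyte cannot be told apart, whichever its direction.

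**Figure D1:**
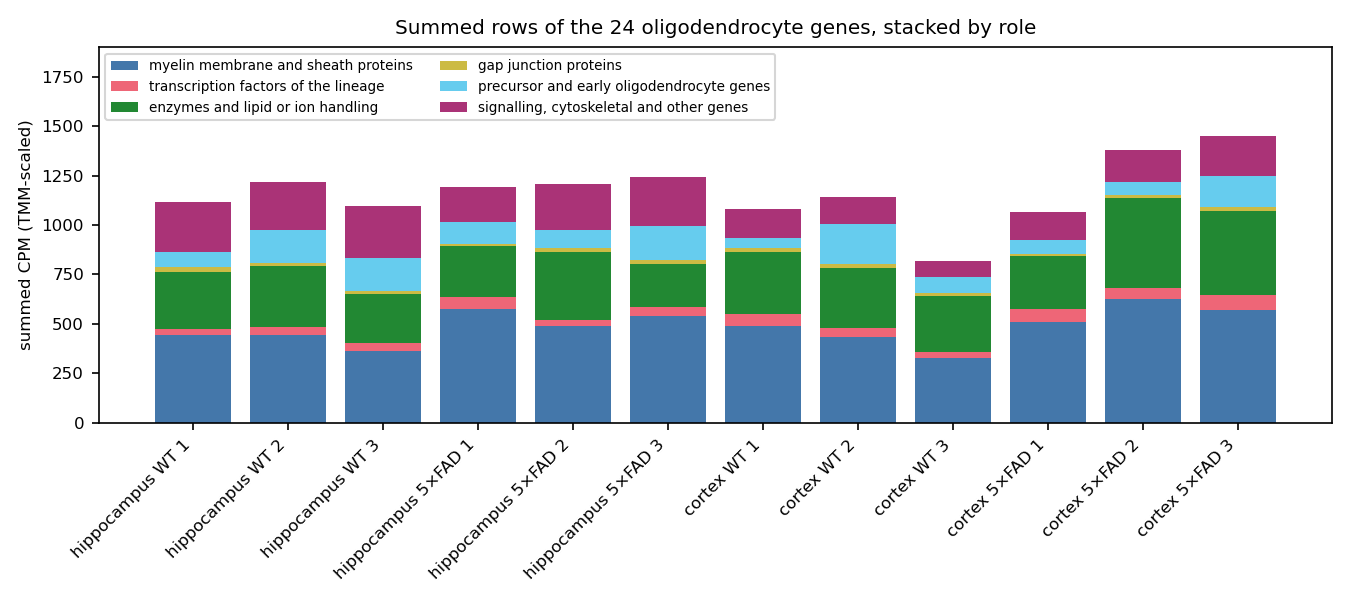
Summed TMM-scaled CPM (vertical axis) of the rows of the 24 oligodendrocyte genes in each of the 12 libraries (horizontal axis), with colours for the role of the genes. Cortex WT 3 has the shortest bar, at 815 CPM, and cortex 5×FAD 3 the tallest, at 1449 CPM.

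In the hippocampus, no oligodendrocyte gene was called between 5×FAD and WT. The counts of all rows of a gene were summed and tested by the quasi-likelihood method of edgeR, with p-values adjusted by Benjamini-Hochberg over all genes tested and a threshold of 0.05. Of the 22 genes that passed the filter 0 were called, against 6 of 11343 in the whole table (0.0529%), and 0 were called by DESeq2 (0.734% of the table). An unadjusted p under 0.05 was reached by 2 of the 22, Cnp and Fa2h, against 8.69% of the table. In 4 of the 22 the libraries of both genotypes did not overlap, against 16.5% of the table. The fold changes lay on both sides of 0, above it for 9 and below it for 13, with a median log2 fold change of -0.09 against 0.03 for all genes.

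Cnp had the lowest adjusted p in the hippocampus. Its rows summed to 249.9, 227 and 162 CPM in the WT libraries and to 414, 334 and 280.4 CPM in the 5×FAD libraries. All 3 5×FAD libraries were above all 3 WT libraries. The log2 fold change was 0.71 ± 0.23 (SE), with an adjusted p of 0.526 by edgeR, and it was 0.42 without the mice labelled 5×FAD 1 and 2. Most of it came from ENSMUST00000150414, the row shown first above, which is annotated as a processed transcript. That row had 182, 178 and 161 CPM in WT and 374, 332 and 218 CPM in 5×FAD (log2 fold change 0.83 ± 0.25, adjusted p = 0.611 by edgeR).

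Fa2h encodes the fatty acid hydroxylase that makes the hydroxylated lipids of myelin. Its rows summed to 6.62, 13.0 and 15.2 CPM in WT and to 17.9, 43.3 and 20.9 CPM in 5×FAD hippocampus, and the groups did not overlap. The log2 fold change was 1.27 ± 0.44, with an adjusted p of 0.532 by edgeR. The high value of 5×FAD 2 came from ENSMUST00000159336, which had 140 counts there and 0 or 1 in the other 5 hippocampus libraries. The main row, ENSMUST00000162463, had 5.97, 10.8 and 14.7 CPM in WT and 17.9, 10.6 and 20.9 CPM in 5×FAD, and these overlapped. Leaving out the rows that were high in some libraries and near 0 in others lowered the log2 fold change of Fa2h to 0.54, and leaving out hippocampus 5×FAD 2 lowered it to 0.77.

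Aspa and Ndrg1 were lower in every 5×FAD library of the hippocampus than in every WT library. Aspa encodes aspartoacylase, which splits N-acetylaspartate and supplies acetate for lipid synthesis in oligodendrocytes. Its retained-intron row had 49.3, 47.2 and 44.2 CPM in WT and 32.4, 41.9 and 27.3 CPM in 5×FAD, a log2 fold change of -0.44 ± 0.21 (adjusted p = 0.599 by edgeR). Without the mice labelled 5×FAD 1 and 2 it was -0.76, and it ran from -0.63 to -0.31 when 1 library was left out. Ndrg1 had 27.5, 29.1 and 34.5 CPM in WT and 18.4, 21.9 and 26.3 CPM in 5×FAD. Its log2 fold change was -0.42 ± 0.22 (adjusted p = 0.618 by edgeR). It was -0.18 without those mice.

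Apart from Cnp, the markers of the lineage stages overlapped between the genotypes in the hippocampus. Mbp, the main cytoplasmic protein gene of compact myelin, had 15.6, 21.9 and 11.1 CPM in WT and 13.2, 11.5 and 15.8 CPM in 5×FAD. Mag, a receptor gene of the innermost myelin layer, had 51.6, 60.3 and 51.3 CPM in WT and 42.6, 40.8 and 67.7 CPM in 5×FAD. Mobp, a further myelin protein gene, had 5.97, 9.77 and 5.67 CPM in WT and 3.49, 5.99 and 5.91 CPM in 5×FAD. The log2 fold changes were -0.23 ± 0.30 for Mbp, -0.08 ± 0.24 for Mag and -0.45 ± 0.36 for Mobp and so were close to their standard errors or smaller. Myrf, whose factor drives myelin genes, had 25.4, 30.8 and 39.0 CPM in WT and 48.5, 23.7 and 37.4 CPM in 5×FAD (0.23 ± 0.31). Bcas1, which marks premyelinating oligodendrocytes, had 10.5, 8.50 and 6.81 CPM in WT and 7.22, 7.83 and 7.88 CPM in 5×FAD (-0.14 ± 0.27). The precursor markers also overlapped, with a wide spread within both groups for Cspg4 and within 5×FAD only for Pdgfra. Cspg4, which encodes NG2, had 62.5, 156.5 and 158 CPM in WT and 103, 84.8 and 159.5 CPM in 5×FAD (-0.09 ± 0.39). Pdgfra had 2.56, 2.55 and 2.27 CPM in WT and 0.498, 2.30 and 1.97 CPM in 5×FAD (-0.59 ± 0.55), and its count in 5×FAD 1 was 2. Without that library the value was -0.18 for Pdgfra and -0.24 for Mobp, without 5×FAD 2 it was -0.95 for Pdgfra, and without WT 2 it was -0.17 for Mobp. Without the mice labelled 5×FAD 1 and 2, the log2 fold changes of Mag and Cspg4 turned to 0.34 and 0.37.

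The other hippocampal members also overlapped. Nfasc had a log2 fold change of 0.0027 ± 0.24 and Car2, the carbonic anhydrase gene, -0.05 ± 0.19. Qdpr, which encodes dihydropteridine reductase, had 0.51 ± 0.29, Trf, the transferrin gene, 0.37 ± 0.49, and Tcf7l2, a factor gene of differentiating oligodendrocytes, 0.32 ± 0.43. Ugt8a, whose enzyme makes galactosylceramide, had -0.40 ± 0.30 and Gjc3, a connexin gene, -0.23 ± 0.35. Dock10 had -0.17 ± 0.18, Pde4b, a phosphodiesterase gene, 0.16 ± 0.43, Gsn, which encodes gelsolin, 0.12 ± 0.38, and Apod -0.13 ± 0.45.

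**Figure D2:**
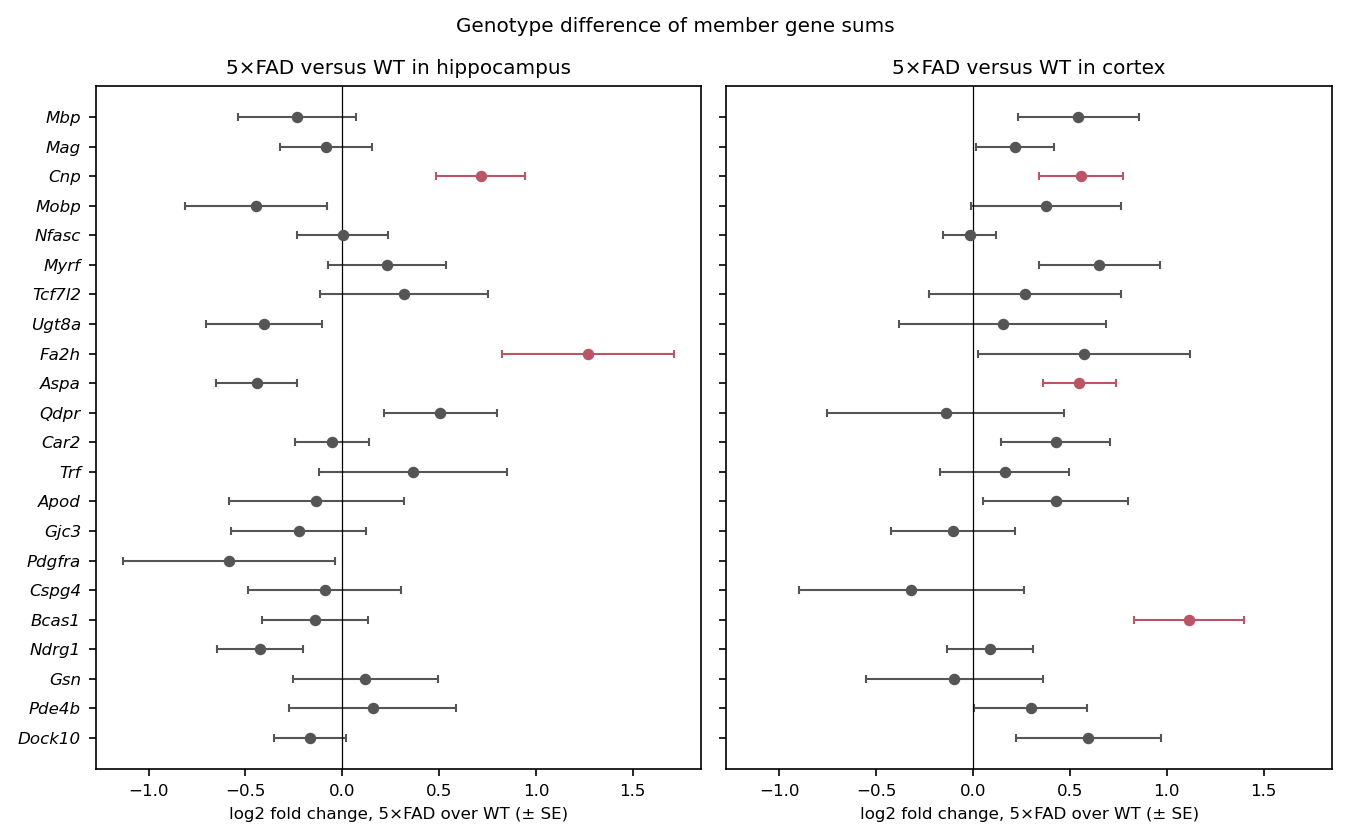
Log2 fold change of 5×FAD over WT (horizontal axis, points with bars of ± SE) for the gene sums that passed the filter (vertical axis), in the hippocampus (left) and the cortex (right), with unadjusted p under 0.05 in red. The points of the hippocampus lie on both sides of 0 (9 above, 13 below), and those of the cortex mostly above it (16 above, 5 below), and no gene passed the adjusted threshold.

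In the cortex the oligodendrocyte genes were mostly higher in 5×FAD, but none was called. Of 21 genes tested, 16 had a log2 fold change above 0 and 5 below, with a median of 0.30 against -0.00102 for all genes. By edgeR 0 of the 21 were called, against 2 of 11404 in the table (0.0175%), and by DESeq2 0 were called (0.466% of the table). An unadjusted p under 0.05 was reached by 3 of 21, against 6.67% of the table, and 4 of 21 did not overlap between genotypes, against 13.1%. Those 4 (Bcas1, Aspa, Cnp and Myrf) were all higher in 5×FAD. Leaving out 1 library at a time gave medians from 0.25 to 0.43. An unadjusted p under 0.05 was then reached by 1 member without WT 3 or without 5×FAD 3, and by 5 without WT 1. Without the mice labelled 5×FAD 1 and 2 the median was 0.37. With retained-intron rows only, the median was lower, at 0.15 over 18 genes. Without the rows that were high in some libraries and near 0 in others, it was 0.27.

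Bcas1 showed the largest difference in the cortex. It had 5.39, 6.23 and 6.27 CPM in WT and 10.2, 11.4 and 17.2 CPM in 5×FAD, so that every 5×FAD library was above every WT library. The log2 fold change was 1.11 ± 0.29, with an adjusted p of 0.713 by edgeR. It ran from 0.85 to 1.26 when 1 library was left out. Without the mice labelled 5×FAD 1 and 2 it was 1.52, which rests on cortex 5×FAD 3 alone. The counts were small, from 22 to 29 in WT and from 43 to 76 in 5×FAD, and were spread over 5 rows. The row with the most counts, ENSMUST00000147577, overlapped between genotypes in both regions. Its log2 fold change was 0.54 ± 0.33 in the cortex and 0.36 ± 0.31 in the hippocampus. In ENSMUST00000145920, which ends in the exon shown above, the WT libraries had 5, 7 and 5 counts and the 5×FAD libraries 23, 14 and 14. In cortex 5×FAD 3, ENSMUST00000133673 gave 38 of the 76 counts, against at most 9 in the other libraries.

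Cnp was higher in 5×FAD in the cortex as well. It had 276, 233 and 156 CPM in WT and 302, 336 and 344 CPM in 5×FAD, again without overlap. The log2 fold change was 0.56 ± 0.22 (adjusted p = 0.740 by edgeR), and 0.63 without the mice labelled 5×FAD 1 and 2. It was 0.36 without cortex WT 3, the lowest library. Row ENSMUST00000150414 had 208, 177 and 154 CPM in WT and 248, 274 and 275 CPM in 5×FAD, and its log2 fold change was 0.57 ± 0.17.

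Aspa and Myrf were also without overlap. Aspa had 30.7, 40.6 and 32.5 CPM in WT and 50.0, 43.9 and 58.3 CPM in 5×FAD cortex (log2 fold change 0.55 ± 0.19, adjusted p = 0.725 by edgeR), the direction opposite to that in the hippocampus. Myrf had 46.0, 39.3 and 19.4 CPM in WT and 50.5, 52.1 and 62.6 CPM in 5×FAD (0.65 ± 0.31, adjusted p = 0.756 by edgeR). The lowest value of Myrf belonged to cortex WT 3, and without that library its log2 fold change was 0.36. The row with the most Myrf counts, ENSMUST00000189439, overlapped between genotypes in the cortex (0.32 ± 0.25). The other Myrf row, ENSMUST00000190922, did not overlap there (0.91 ± 0.51).

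The remaining stage markers overlapped in the cortex. Mbp had 22.5, 12.0 and 11.1 CPM in WT and 25.5, 19.1 and 22.2 CPM in 5×FAD (0.54 ± 0.31). Mag had 52.3, 61.3 and 41.6 CPM in WT and 50.0, 67.2 and 63.5 CPM in 5×FAD (0.22 ± 0.20). Mobp had 8.21, 3.65 and 3.70 CPM in WT and 7.08, 6.91 and 6.35 CPM in 5×FAD (0.38 ± 0.39). WT 1 reached the range of 5×FAD or lay above it for Mbp and Mobp, and WT 1 and WT 2 lay within it for Mag. Without WT 1 the values were 0.94 for Mbp and 0.87 for Mobp, and that of Mobp was 0.17 without WT 2 and 0.19 without WT 3. Cspg4 had 45.7, 192 and 75.8 CPM in WT and 61.7, 51.8 and 138 CPM in 5×FAD (-0.32 ± 0.58, and 0.40 without the mice labelled 5×FAD 1 and 2), and Pdgfra, which did not pass the filter, had 2.11, 2.79 and 1.71 CPM in WT and 2.21, 1.33 and 3.63 CPM in 5×FAD. The spread of Cspg4 within WT alone was wider than its difference between genotypes. The other members had log2 fold changes from -0.14 ± 0.61 (Qdpr) to 0.60 ± 0.37 (Dock10), among them 0.43 ± 0.28 for Car2, 0.43 ± 0.37 for Apod, 0.57 ± 0.55 for Fa2h and -0.02 ± 0.14 for Nfasc. In Fa2h, ENSMUST00000159336 had 99 counts in cortex 5×FAD 2, 37 in cortex 5×FAD 3 and 0 or 1 in the other cortex libraries. The main Fa2h row, ENSMUST00000162463, had a log2 fold change of -0.05 ± 0.43 in the cortex.

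**Figure D3:**
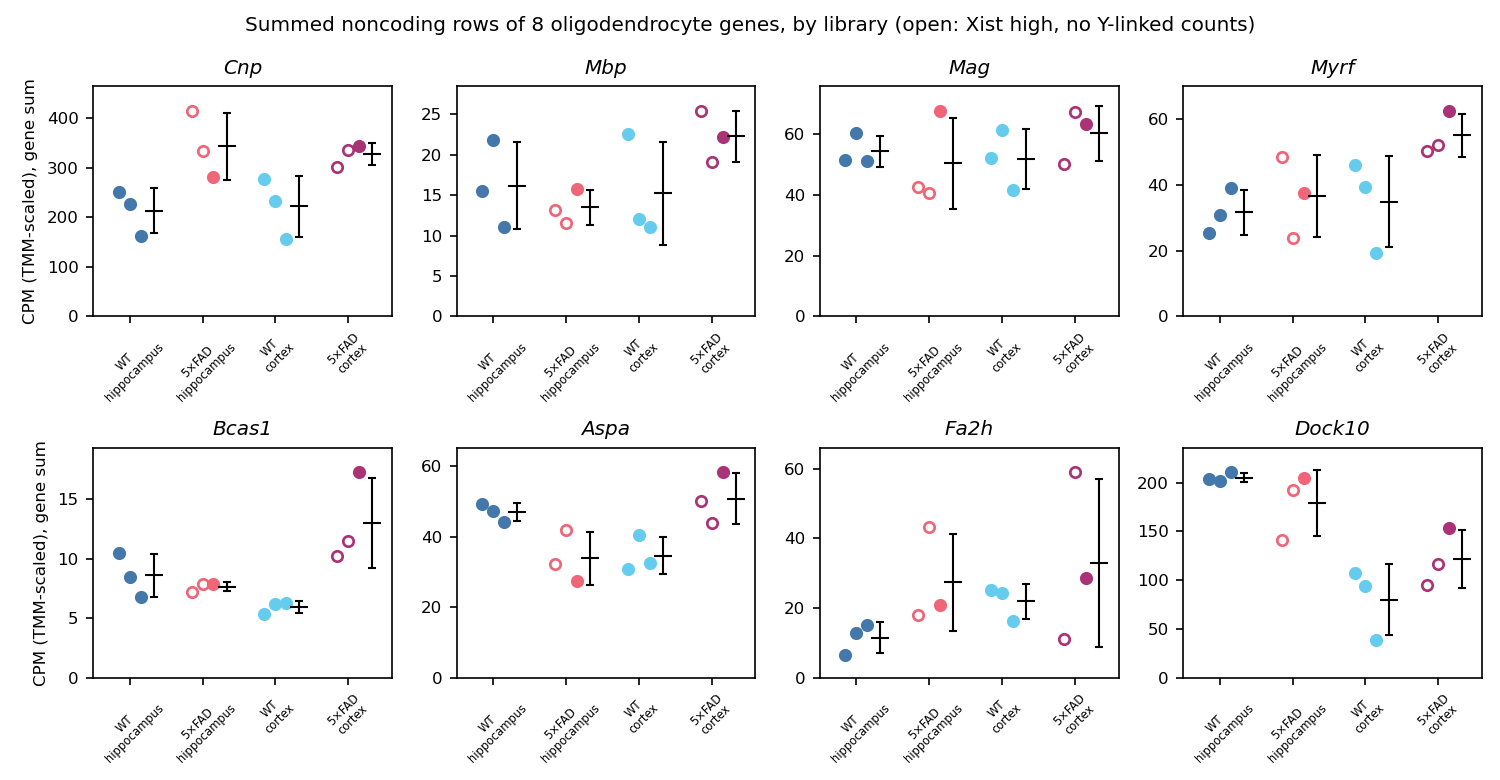
TMM-scaled CPM of the summed rows (vertical axis, from 0) of 8 oligodendrocyte genes in the 4 groups (horizontal axis), 1 point per library, with the mean and SD of the 3 libraries as a black mark and bar; open points are the libraries with high Xist and no Y-linked counts. Every 5×FAD library is above every WT library for Cnp in both regions and for Aspa, Bcas1 and Myrf in the cortex, Aspa is the other way round in the hippocampus, and the 3 WT hippocampus libraries of Dock10 (201 to 210.5 CPM) are above all cortex libraries.

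The genotype effect was compared between the regions by an interaction term in a fit of all 12 libraries. Of 22 members tested 0 were called by edgeR, and in the whole table edgeR called 0 of 12104 (0%). DESeq2 gave an adjusted p to 20 of the 22 members and called 0. It called 19 of the 9006 genes to which it gave an adjusted p (0.211%). Unadjusted p under 0.05 was reached by 2 members, Aspa and Bcas1, against 7.01% of the table. For Aspa the effect in the hippocampus minus that in the cortex was -1.02 ± 0.27 on the log2 scale (unadjusted p = 0.00329, adjusted p = 0.647 by edgeR), and -1.51 without the mice labelled 5×FAD 1 and 2. For Bcas1 it was -1.28 ± 0.37 (unadjusted p = 0.00500, adjusted p = 0.648 by edgeR), and -1.63 without those mice. Both genes are given here because of their values. The median over the 22 members was -0.39, against -0.01 over all genes, and 15 were below 0.

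In WT mice the regions were compared within libraries of one sex, and again 0 of 22 members were called by edgeR, against 399 of 11429 genes in the table (3.49%). DESeq2 called 1 of 22, Dock10, against 6.67% of the table. An unadjusted p under 0.05 was reached by 4 of 22 against 17.3% of the table, and 5 of 22 did not overlap between regions against 24.9%. The median log2 fold change of hippocampus over cortex was 0.06 against -0.02 for all genes.

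Dock10 was the member that differed most. Its rows summed to 203, 201 and 210.5 CPM in WT hippocampus and to 107, 94.4 and 39.3 CPM in WT cortex, so that every hippocampus library was above every cortex library. The log2 fold change was 1.34 ± 0.34 (adjusted p = 0.0961 by edgeR, 0.00347 by DESeq2). Without cortex WT 3, the library with 39.3 CPM, it was 1.02 and was called, with an adjusted p of 0.0215 by edgeR. All 4 Dock10 rows were higher in WT hippocampus, with log2 fold changes of 1.54 ± 0.55, 1.07 ± 0.30, 0.80 ± 0.31 and 1.46 ± 0.27. The last is ENSMUST00000187698, at 15.4, 20.2 and 22.7 CPM in WT hippocampus and 6.10, 5.80 and 9.12 CPM in WT cortex, with an adjusted p of 0.0807 by edgeR and 0.00450 by DESeq2. Dock10 is not restricted to oligodendrocytes, and which cells gave these counts was not measured.

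In the 5×FAD mice Dock10 had 141, 192 and 205 CPM in hippocampus and 94.7, 117 and 153 CPM in cortex. The regions overlapped there, through hippocampus 5×FAD 1 and cortex 5×FAD 3, and the log2 fold change was 0.56 ± 0.25 (adjusted p = 0.419 by edgeR). The difference between genotypes in this effect was -0.79 ± 0.45 and did not pass the threshold (adjusted p = 0.742 by edgeR).

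Fa2h, Aspa, Ndrg1 and Bcas1 also lay apart between the regions of WT mice. Fa2h had 6.62, 13.0 and 15.2 CPM in hippocampus and 25.3, 24.5 and 16.2 in cortex (-0.95 ± 0.34), and was the only member lower in hippocampus without overlap. Ndrg1 had 27.5, 29.1 and 34.5 CPM in hippocampus and 24.4, 22.8 and 16.5 CPM in cortex (0.49 ± 0.20). Aspa differed by 0.42 ± 0.16 and Bcas1 by 0.51 ± 0.26, in both cases with every hippocampus library above every cortex library. The adjusted p of these 4 genes was between 0.213 and 0.385 by edgeR. The myelin protein genes were close between the WT regions, with log2 fold changes of 0.07 ± 0.36 for Mbp, 0.05 ± 0.17 for Mag, -0.08 ± 0.25 for Cnp, -0.01 ± 0.12 for Nfasc and 0.44 ± 0.42 for Mobp, which ran from 0.16 to 0.93 when 1 library was left out. Myrf differed by -0.16 ± 0.33, Cspg4 by 0.25 ± 0.57 and Pdgfra by 0.12 ± 0.35.

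In 5×FAD mice the members were mostly lower in hippocampus than in cortex. Of 21 tested, 16 had a log2 fold change below 0 and 5 above, with a median of -0.23 against 0.01 for all genes. By edgeR 0 of 21 were called, against 22 of 11399 (0.193%), and DESeq2 called 0 (2.96% of the table). An unadjusted p under 0.05 was reached by 3 of 21 (Mbp, Bcas1 and Aspa), against 12.6% of the table, and 6 of 21 did not overlap, all lower in hippocampus, against 19.2% in either direction. Mbp had 13.2, 11.5 and 15.8 CPM in hippocampus and 25.5, 19.1 and 22.2 CPM in cortex (-0.73 ± 0.24, adjusted p = 0.288 by edgeR). Bcas1 had 7.22, 7.83 and 7.88 CPM in hippocampus and 10.2, 11.4 and 17.2 CPM in cortex (-0.76 ± 0.30, adjusted p = 0.365). Pde4b had 3.98, 8.53 and 13.0 CPM in hippocampus and 13.5, 16.2 and 13.6 CPM in cortex (-0.76 ± 0.42, adjusted p = 0.532). In all 3 genes the highest hippocampus library was below the lowest cortex library, for Pde4b by less than 1 CPM. Without the mice labelled 5×FAD 1 and 2, in a fit of the 8 remaining libraries, the log2 fold changes were -0.48 for Mbp, -1.11 for Bcas1 and -0.05 for Pde4b. Aspa (-0.59 ± 0.23), Myrf (-0.60 ± 0.28) and Mobp (-0.40 ± 0.34) were the others without overlap. Bcas1 was -0.50 without cortex 5×FAD 3, Pde4b -0.42 without hippocampus 5×FAD 1 and -1.20 without hippocampus 5×FAD 3, Mobp -0.19 without hippocampus 5×FAD 1, and Myrf -0.36 without hippocampus 5×FAD 2 and -0.06 without the rows that were high in some libraries and near 0 in others. Cnp (0.06 ± 0.19) and Mag (-0.26 ± 0.26) overlapped, and without those mice turned to -0.28 and 0.10. Cspg4, at 0.46 ± 0.42 and from 0.16 to 1.02 when 1 library was left out, was one of the 5 members above 0. The region and genotype comparisons share libraries, so these values are not independent of those above.

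**Figure D4:**
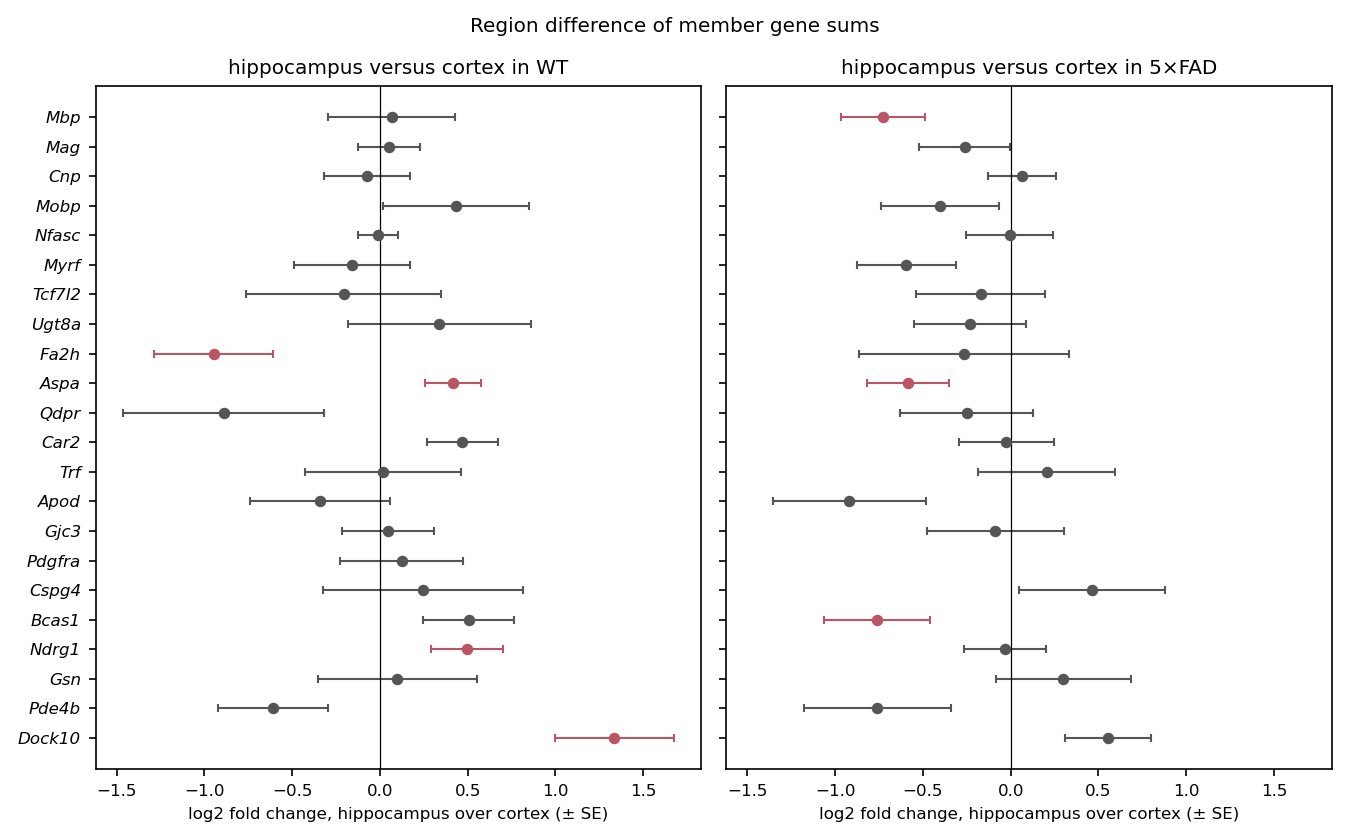
Log2 fold change of hippocampus over cortex (horizontal axis, points with bars of ± SE) for the gene sums that passed the filter (vertical axis), in WT mice (left) and 5×FAD mice (right), with unadjusted p under 0.05 in red. Dock10 lies farthest to the right in WT, at 1.34, and 16 of 21 members lie below 0 in 5×FAD.

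The rows were also tested one by one, and 0 member rows were called by edgeR in any of the 4 comparisons. In the hippocampus 36 member rows were tested between genotypes and 1 had an unadjusted p under 0.05, against 7.58% of all rows, where 0.0183% were called. In the cortex 36 were tested and 5 had an unadjusted p under 0.05, against 5.34% of all rows, with 0.0545% called. These 5 were rows of Bcas1, Apod, Dock10, Cnp and Aspa, and all were higher in 5×FAD. Apod ENSMUST00000155682 had 15, 18 and 10 counts in WT cortex and 25, 36 and 39 counts in 5×FAD cortex (1.22 ± 0.32, adjusted p = 0.844 by edgeR), although it holds only 4.48% of the counts of Apod. Dock10 ENSMUST00000187698 had 26, 27 and 32 counts in WT cortex and 47, 61 and 69 counts in 5×FAD cortex (1.02 ± 0.30, adjusted p = 0.851). Between the regions, 7 of 36 rows in WT reached an unadjusted p under 0.05 against 12.8% (0.986% called), 4 of them Dock10 rows, and DESeq2 called 1, against 3.39% of all rows. In 5×FAD 7 of 38 did, against 9.38% (0.0182% called), and DESeq2 called 0 (1.67% of all rows). By DESeq2 0 member rows were called between genotypes in either region, against 0.583% of all rows in the hippocampus and 0.465% in the cortex.

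Some rows were present in some libraries and near 0 in others. Of the 53 rows, 4 had at least 100 counts in some library and at most 3 in another, which is 15.4% of the 26 member rows that reached 100 counts, against 11.2% in the whole table. The Pllp row had 319 counts in cortex 5×FAD 2 and 0 to 3 counts in each of the other 11 libraries, so the level of Pllp rests on 1 library. Of its 954 bases, 866 lie in coding exons of Pllp and 88, its first exon, do not. Cnp ENSMUST00000147403, which ends in an exon downstream of the coding transcripts, had 4 counts in hippocampus WT 3, 2 in hippocampus 5×FAD 2 and 3 in cortex WT 3, against 164 to 313 in the other 9. Its absence from those libraries did not follow genotype or region. Myrf ENSMUST00000190922 had 1, 27 and 105 counts in WT hippocampus, 137, 13 and 45 in 5×FAD hippocampus, 107, 106 and 20 in WT cortex and 149, 118 and 163 in 5×FAD cortex. The other Myrf row, ENSMUST00000189439, varied from 48 to 118 counts. With the on-or-off rows left out of the sums, the log2 fold change of Myrf in the cortex was 0.31 in place of 0.65.

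**Figure D5:**
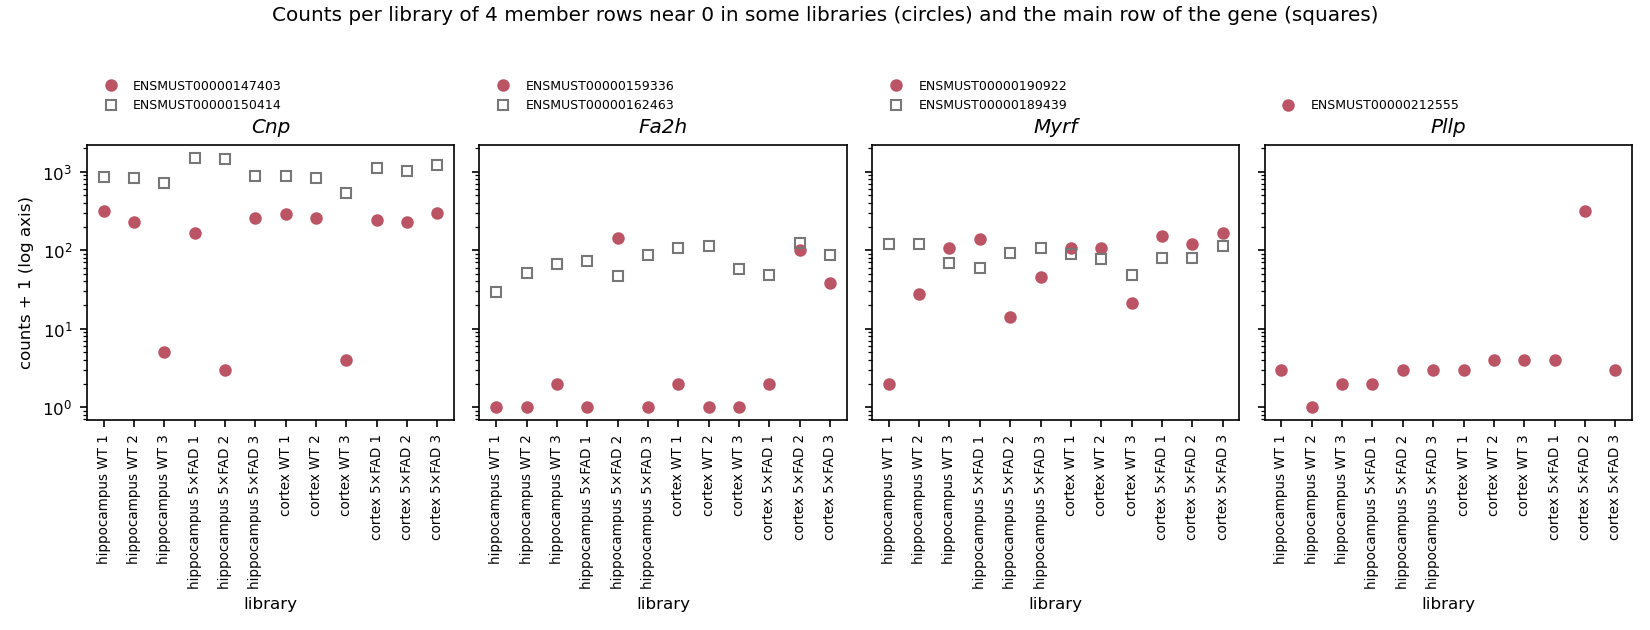
Counts plus 1 on a log axis (vertical) in each of the 12 libraries (horizontal) for the 4 member rows with at least 100 counts in some library and at most 3 in another (circles), with the row of most counts of the same gene (squares). The Pllp row is high in cortex 5×FAD 2 alone, and Cnp ENSMUST00000147403 falls to 2 to 4 counts in 3 libraries while the main Cnp row stays above 500.

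Other genes of the lineage and of other cells were counted beside the members. Of 41 further oligodendrocyte genes 24 had rows, and 0 were called between genotypes in either region: 2 of 21 tested in the hippocampus and 4 of 23 in the cortex had an unadjusted p under 0.05, against 8.69% and 6.67% of the table, with median log2 fold changes of 0.18 and 0.34. Their sum did not overlap between genotypes in the cortex, at 1111 to 1149 CPM in WT and 1207 to 1245 in 5×FAD. In the hippocampus it overlapped, at 1107 to 1261 CPM in WT and 1174 to 1405 in 5×FAD. Of these genes, Ptgds, the gene of a prostaglandin synthase, was the one called between the regions in WT. It was lower in hippocampus, with a log2 fold change of -0.95 ± 0.13 (adjusted p = 0.0162 by edgeR). Its rows were at 138 ± 16.3 CPM in WT hippocampus and 263 ± 19.7 in WT cortex (SD, n = 3). In 5×FAD mice the hippocampus mean was the higher, at 352 ± 91.9 CPM against 265 ± 35.7 in cortex. Of 21 genes of cholesterol synthesis, which supplies myelin lipid, 14 had rows and 0 were called. Their medians for 5×FAD over WT were 0.44 in the hippocampus and 0.41 in the cortex. An unadjusted p under 0.05 was reached by 2 of 13 tested in the hippocampus and 1 of 14 in the cortex. The cholesterol sum did not overlap between genotypes in the hippocampus, at 450 to 551 CPM in WT and 637 to 746 in 5×FAD. In the cortex it overlapped, at 562 to 655 CPM in WT and 555 to 955 in 5×FAD. Of 7 genes known from oligodendrocytes in disease models, 4 had rows and 0 were called, with a median of 0.71 over 3 tested genes in the hippocampus and over 4 in the cortex and an unadjusted p under 0.05 for 1 and 2 of them.

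The sums of astrocyte and of microglia markers did not overlap between genotypes in the hippocampus, each mainly through 1 gene, and their part in the results above was not tested. The 7 of 10 astrocyte genes with rows summed to 1637 to 1684 CPM in WT and 666 to 1400 in 5×FAD hippocampus, and to 1096 to 1733 and 1155 to 1707 in the cortex, with Gfap at 0 in WT hippocampus and 5×FAD cortex. Most of it came from Slc1a3, at 1357 ± 68.7 CPM in WT and 658 ± 341 CPM in 5×FAD hippocampus (SD, n = 3), and of the 6 astrocyte genes tested there 3 had a log2 fold change above 0 and 3 below, with a median of 0.01. The 6 of 15 microglia genes with rows summed to 35.7 to 44.9 CPM in WT and 53.2 to 212 in 5×FAD hippocampus, and to 48.4 to 71.6 and 40.6 to 256 in the cortex, most of it from Trem2. The 9 of 10 neuron genes with rows summed to 1276 to 4122 CPM and 1603 to 7008 in the hippocampus, and to 1372 to 2584 and 1196 to 2933 in the cortex. The 4 of 8 vascular genes with rows summed to 52.8 to 133 CPM over all libraries. Of the astrocyte, microglia, neuron and vascular genes 0 were called between genotypes in either region by edgeR. The 4 of 10 choroid plexus genes with rows summed to 7.72 to 54.7 CPM in hippocampus and 1.59 to 11.8 in cortex, with Folr1 at 0 in every library, and Kl was called higher in hippocampus than in cortex of WT mice (log2 fold change 2.78 ± 0.32, adjusted p = 0.00872 by edgeR).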

How the data were processed

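RNA of 12 tissue samples was depleted of ribosomal RNA and made into stranded paired-end libraries. The study's methods also name RNase R, which digests linear RNA, while the labels of these libraries do not, and whether it was used for them is not given in the sources used here. The authors deposited whole-number counts per transcript, without normalization. The submitters' processing notes name Trimmomatic 0.36 and edgeR, and the aligner, counter, genome build and annotation are not given in the sources used here. All 12 count columns were mapped to samples, and 0 were left out. Replicate numbers come from the library codes, since all titles give the same replicate.

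Transcript identifiers were matched to GENCODE M21 (GRCm38), and counts were tested per row and summed per gene with edgeR 4.0.16 in R 4.3.3 (filterByExpr, TMM, glmQLFit and glmQLFTest, Benjamini-Hochberg, threshold 0.05), over the 6 libraries of the groups compared, or all 12 for the interaction. The standard error is the log2 fold change divided by the square root of F. The functions were tested on simulated counts. Alternatives were DESeq2 1.42.0 and its size factors, library size only, other filters, robust estimation, a replicate block, 12 libraries in one fit, each library left out, the mice labelled 5×FAD 1 and 2 left out, retained-intron rows only, and sums without on-or-off rows. The fit of 8 libraries was chosen after seeing the data. Sequences, overlaps and figures used Python 3.11.15, pandas 2.3.3 and matplotlib 3.10.9.

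The members and lists were chosen with earlier results of these data known. Values per library were given for 13 stage markers where they passed the filter, and in each comparison for up to 3 members in each direction with the largest change among those without overlap. The interaction of Aspa and Bcas1 and the single rows named were chosen after their values were seen. Pairs of replicates differed by more than counting noise (chi-square per degree of freedom from 20.8 to 33.0 over transcripts with at least 20 counts in the pair). The series' design text gives 3 mice for each genotype, with both regions sampled in every mouse. Which numbers are the same mouse is not stated. Counting limits cover counting error only.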

Additional observations from a re-analysis of the deposited data

Results flagged for a closer look

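Aspa was flagged because its genotype difference ran in opposite directions in the regions. Every 5×FAD library was below every WT library in the hippocampus and above every WT library in the cortex, which is also a region difference of opposite direction in WT and 5×FAD. The effect in the hippocampus minus that in the cortex was -1.02 on the log2 scale over 12 libraries, with an unadjusted p of 0.00329 and an adjusted p of 0.647 by edgeR, so it did not pass the threshold. Bcas1 was flagged because every hippocampus library was above every cortex library in WT and below every cortex library in 5×FAD. For the summed Bcas1 rows, the effect in the hippocampus minus that in the cortex was -1.28. Its unadjusted p was 0.00500 and its adjusted p 0.648 by edgeR. The row with the most Bcas1 counts, ENSMUST00000147577, holds 46.8% of them and did not turn. Its hippocampus over cortex log2 fold change was 0.30 ± 0.30 in WT and 0.12 ± 0.34 in 5×FAD, both with overlap.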

How the results depend on the processing

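The count of members called was 0 in each comparison by edgeR and stayed 0 under the alternatives run, except between the regions of WT mice. There DESeq2 called 1 gene, leaving out each replicate in turn gave 0 to 1 (1 without cortex WT 3), and among single rows 1 was called by DESeq2, with at least 10 counts in every library and with 12 libraries in one fit. All of these calls were Dock10. With the replicate block 0 members were called in each of the 9 comparisons, and in the cortex 1 in place of 3 had an unadjusted p under 0.05. The same numbers did not deviate together in WT (correlations from -0.04 to 0.01) and did so unevenly in 5×FAD (0.07 to 0.26). Unlike numbers in 5×FAD gave 0.05 and 0.10 between 1 and 2, the libraries with high Xist, and -0.18 to -0.11 between these and 3. The pairing is therefore not established. In the whole table the block lowered the genes called from 6 to 2, from 2 to 0, from 399 to 5 and from 22 to 0, and DESeq2 raised them to 83, 53, 761 and 336, the interaction from 0 to 19, and the single rows from 4, 12, 217 and 4 to 127, 102, 743 and 366. The cause was not tested. Directions turned for 14 log2 fold changes, which lay between -0.32 and 0.25. For 5×FAD over WT in the hippocampus, leaving out replicates gave -0.46 to 0.028 for Mbp, -0.030 to 0.46 for Myrf, -0.29 to 0.016 for Bcas1, -0.36 to 0.046 for Mag and -0.43 to 0.094 for Cspg4, and in the cortex -0.88 to 0.47 for Cspg4. For hippocampus over cortex in WT it gave -0.44 to 0.086 for Myrf, -0.11 to 1.03 for Cspg4, -0.0096 to 0.33 for Pdgfra, -0.27 to 0.11 for Cnp, -0.073 to 0.18 for Mag and -0.20 to 0.46 for Mbp, and in 5×FAD -0.091 to 0.19 for Cnp. Without on-or-off rows Myrf was -0.079 in the hippocampus and 0.34 between WT regions, and with library size only Mag was -0.011 and Mbp -0.0027 between WT regions. Without the mice labelled 5×FAD 1 and 2, Mag was 0.34 and Cspg4 0.37 in the hippocampus, Cspg4 0.40 in the cortex, and Mag 0.10 and Cnp -0.28 between the 5×FAD regions. Low counts limited, among others, Pdgfra (2 to 16 per library), Mobp (13 to 46) and Bcas1 (22 to 76).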
